A study of Mus musculus with 6 samples.

Results

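Adhesion G protein-coupled receptors are cell-surface receptors that join a long adhesive extracellular region to a membrane-spanning region that signals through G proteins. During maturation most of them cut themselves at a conserved site just outside the membrane, and the stretch freed by this cut can act as a tethered agonist. In blood cells, members of the family mark stem cells (GPR56), macrophages (F4/80, encoded by Emr1) and leukocytes of many kinds (CD97). The 9 genes described here are rows of the count table with the symbols Lphn1, Lphn2, Lphn3, Eltd1, Cd97, Emr1, Emr4, Gpr56 and Gpr97, out of 33924 rows in all and of 31 rows for this receptor family. They were chosen with results of the contrast between leukaemias of LSK and of GMP origin in view, so their values in that comparison are given as a description and are not tested.

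The 6 libraries were made from cultured mouse acute myeloid leukaemias driven by a retrovirus that carries the fusion oncogene MLL-AF9. In 3 of them (LSK 44, LSK 45 and LSK 46) the fusion had been put into LSK cells, a stem-cell-rich fraction of the marrow defined by Sca-1, Kit and the lack of lineage markers. In the other 3 (GMP 5, GMP 11 and GMP 19) it had been put into granulocyte-macrophage progenitors (GMP). All 6 share the later steps: GFP-positive cells were transplanted into lethally irradiated C57BL/6 mice together with wild-type support marrow, and leukaemia cells from the marrow of sick mice were kept in culture with SCF, IL-3 and IL-6. The labels call the samples purified LSK or GMP cells, and do not say whether donor, host and support cells were separated after harvest. Whether each library stands for its own transduction or its own mouse is not stated either, so spreads and p-values cover only these libraries, and may be in part technical. Total counts ran from 16640929 to 33885428 per library. Levels are CPM (counts scaled to a common library size) after TMM scaling, and levels of different genes are compared as CPM per kilobase of exon.

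All 10 marker genes of myeloid leukaemia cells that were looked up (among them Mpo, the myeloperoxidase gene, and Myb, a progenitor transcription factor gene) were detected, with a summed level of 3737, 3493 and 3041 CPM in the LSK-derived libraries and 2556, 2627 and 3281 CPM in the GMP-derived libraries. Mpo was at 13.8 CPM in GMP 5, and at 316 and 500.3 CPM in GMP 11 and GMP 19. The summed level of B cell markers came mostly from Cd79b, and that of stroma markers in the GMP-derived libraries mostly from Pdgfrb. Of 8 B cell markers, 2 were tested, and at an adjusted p below 0.05, 1 was higher and 1 lower in the LSK-derived libraries. Over all tested genes, 11.8% were higher and 13.9% lower. Cd79b was higher (18.1 ± 3.73 CPM in LSK-derived against 5.45 ± 2.07 CPM in GMP-derived libraries) and Blnk lower (0.160 ± 0.101 against 1.67 ± 1.05 CPM). Ms4a1 and Pax5 were at 0 in all 6 libraries. Of 10 stroma markers, 2 were tested, 0 were higher and 1 lower in the LSK-derived libraries. The gene lower was Pdgfrb (2.63 ± 2.17 against 26.9 ± 11.6 CPM), and Col1a2, Dcn, Lum and Bgn were at 0 in all 6 libraries.

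Most receptors of this family carry the cleavage site, so its presence in these genes is no independent result. The site was looked up in sequence, not in the counts. Its hallmark is a pair of cysteines with a single residue between them, followed after 1 further residue by histidine, leucine or methionine, and threonine or serine, the cut falling before the last of these. In the longest open reading frame of the GENCODE M21 transcripts this pattern was found once in 8 of the 9 genes. The coding bases from the first cysteine onward are shown because they hold this shared site, with the 3 codons around the cut in capitals:
Lphn1: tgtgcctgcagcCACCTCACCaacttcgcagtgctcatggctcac
Lphn2: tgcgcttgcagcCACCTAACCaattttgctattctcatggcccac
Lphn3: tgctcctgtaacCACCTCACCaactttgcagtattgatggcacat
Eltd1: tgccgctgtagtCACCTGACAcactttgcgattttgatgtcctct
Cd97: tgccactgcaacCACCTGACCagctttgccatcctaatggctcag
Emr4: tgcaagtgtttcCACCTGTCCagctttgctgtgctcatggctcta
Gpr56: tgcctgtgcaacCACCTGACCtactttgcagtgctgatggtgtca
Gpr97: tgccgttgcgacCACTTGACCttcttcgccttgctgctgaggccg
The search kept only genes with exactly 1 match, and Emr1, with a longest open frame of 931 codons, was not among them. For Emr1, no match and more than 1 match were not told apart. The open frames of the other 8 genes ran from 542 codons in Gpr97 to 1580 codons in Lphn3.

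Of the 9 genes, 7 had enough counts to enter the test across all genes, and Lphn3 and Emr4 did not. Lphn2 and Gpr56 were higher in the LSK-derived libraries, Cd97 was lower, Gpr97 was slightly lower, and the ranges of Lphn1, Emr1 and Eltd1 overlapped between the groups. At an adjusted p below 0.05 the fit called 2 of the 7 higher and 1 lower in the LSK-derived libraries, where it called 11.8% of all 13406 tested genes higher and 13.9% lower. The groups did not overlap in 4 of the 7 and in 45.4% of all tested genes. Because the genes were chosen on this comparison, nothing is read from these counts. Their median log2 fold change (LSK-derived minus GMP-derived, as throughout) was 0.38, against 0.01 over all tested genes.

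**Figure D1:**
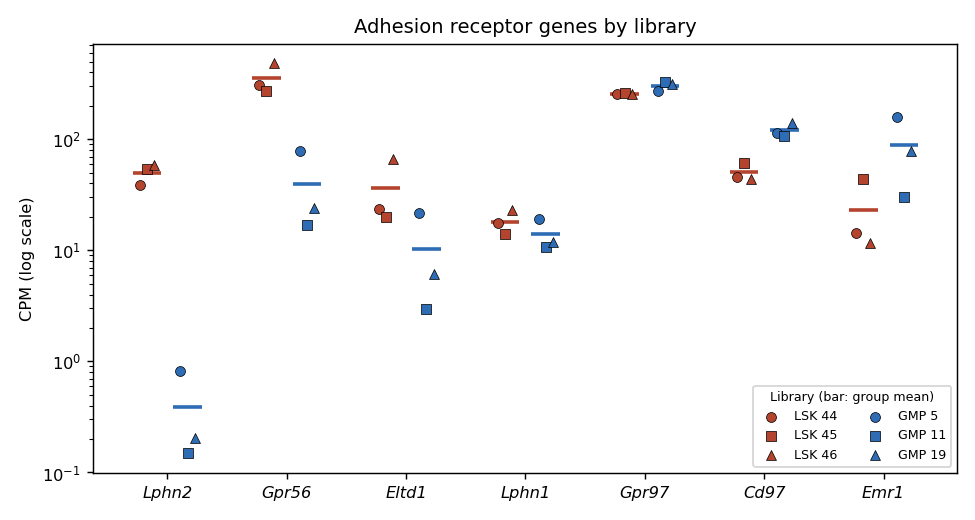
CPM on a log scale for the 7 tested receptor genes, with LSK-derived libraries in red on the left and GMP-derived libraries in blue on the right of each gene, 1 symbol per library and a bar for the group mean. Lphn2 and Gpr56 lie higher in all 3 LSK-derived libraries, Cd97 lies lower, and GMP 5 is the highest GMP-derived library for Lphn2, Gpr56, Eltd1, Lphn1 and Emr1.

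Lphn2 encodes latrophilin-2, a receptor of the subfamily named after the spider toxin latrotoxin, whose members bind teneurins and FLRT proteins on neighbouring cells. It had 38.4, 53.8 and 58.5 CPM in libraries LSK 44, LSK 45 and LSK 46, against 0.820, 0.148 and 0.205 CPM in GMP 5, GMP 11 and GMP 19. Each LSK-derived library thus held Lphn2 at a moderate level, and the GMP-derived libraries held only 20, 5 and 7 reads of it. The log2 fold change was 7.12 ± 0.52 (SE), or 8.11 without GMP 5.

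The other latrophilin genes did not share this pattern. Lphn1 had 17.5, 14.1 and 22.9 CPM in the LSK-derived libraries, against 19.2, 10.8 and 11.8 CPM in GMP 5, GMP 11 and GMP 19. The ranges overlapped, because GMP 5 was above LSK 44 and LSK 45, and the log2 fold change was 0.38 ± 0.27. Lphn1 shares 1107 exon bases with Gm10644, which had 38 counts in all 6 libraries together. Lphn3 had 0 counts in the LSK-derived libraries, which allows up to 0.181, 0.118 and 0.125 CPM in LSK 44, LSK 45 and LSK 46 (3 counts each), and 1 count in GMP 11.

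Eltd1 belongs to the same subfamily and is best known from the endothelium of growing blood vessels. It had 23.7, 19.9 and 66.9 CPM in libraries LSK 44, LSK 45 and LSK 46, against 21.6, 2.94 and 6.07 CPM in GMP 5, GMP 11 and GMP 19. LSK 46 was well above the other LSK-derived libraries, and GMP 5 lay within the LSK-derived range. The log2 fold change was 1.87 ± 0.84, 1.10 without LSK 46 and 3.02 without GMP 5. Of 10 endothelial marker genes, Pecam1, which blood cells also express, made up most of the summed level (234, 340 and 208 CPM in the LSK-derived libraries, 196, 171 and 123 CPM in the GMP-derived libraries). Emcn had no count at all, Kdr had 3 counts among LSK-derived and 2 among GMP-derived libraries, and Cdh5 had 19 in each group. Tie1, too low to be tested, had 2, 2 and 12 counts in LSK 44, LSK 45 and LSK 46, against 0, 0 and 3 in GMP 5, GMP 11 and GMP 19. Of the 10, 3 were tested, 2 were higher and 0 lower in the LSK-derived libraries, against 11.8% and 13.9% of all tested genes. Those higher were Vwf (3.66 ± 0.582 against 0.512 ± 0.269 CPM, adjusted p = 0.00342) and Egfl7 (12.4 ± 2.18 against 6.93 ± 0.901 CPM, adjusted p = 0.0163), both by edgeR's quasi-likelihood test. The part of these markers in the Eltd1 values was not tested. In RNA from bulk cultures, fewer cells that express a gene and less RNA per cell cannot be told apart.

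Gpr56 encodes a receptor that couples to G12 and G13 proteins and is used as a surface marker of haematopoietic stem cells and of leukaemia-initiating cells in human disease. It had 306, 275 and 482 CPM in libraries LSK 44, LSK 45 and LSK 46, against 78.9, 16.7 and 24.2 CPM in GMP 5, GMP 11 and GMP 19. The lowest LSK-derived library was still above GMP 5, while GMP 5 was well above the other 2 GMP-derived libraries. The log2 fold change was 3.16 ± 0.64, 4.11 without GMP 5 and 2.79 without GMP 11. In humans GPR56 also marks cytotoxic lymphocytes. The summed level of 12 T and NK cell markers was 7.68, 8.56 and 8.12 CPM in the LSK-derived libraries and 7.62, 7.84 and 8.15 CPM in the GMP-derived libraries, with Cd3e, Ncr1 and Gzma at 0 in all 6. Of the 12, 3 were tested and 1 was higher (11.8% of all tested genes were). That gene was Klrb1c, which encodes the NK cell receptor NK1.1, with 8, 30 and 13 counts in LSK 44, LSK 45 and LSK 46, against 1, 1 and 0 counts in GMP 5, GMP 11 and GMP 19 (log2 fold change 4.83 ± 0.74, adjusted p = 0.00518 in edgeR's quasi-likelihood test). Most of the summed level was Lck, at 6.496 ± 0.731 and 7.17 ± 0.217 CPM, and Klrk1 was at 0.783 ± 0.587 and 0.356 ± 0.202 CPM, neither of which passed. The part of these markers in the Gpr56 values was not tested.

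Gpr97 encodes a receptor known from granulocytes. It had 258, 263 and 254 CPM in the LSK-derived libraries, against 274, 326 and 315 CPM in GMP 5, GMP 11 and GMP 19. It was the steadiest of the 7 genes, the highest library exceeding the lowest by 1.04-fold among the LSK-derived and 1.19-fold among the GMP-derived libraries. The groups did not overlap, but the difference was small, with a log2 fold change of -0.24 ± 0.08. The summed level of 12 neutrophil markers ran from 67.2 to 202 CPM in the LSK-derived and from 48.6 to 626 CPM in the GMP-derived libraries. Of these, 8 were tested, 0 were higher and 3 (Ngp, S100a9 and Csf3r) lower in the LSK-derived libraries. Among all tested genes 11.8% were higher and 13.9% lower. The sum was highest in GMP 19, where Gpr97 was not, and its part in the Gpr97 values was not tested. Of the most abundant markers on that list, the collagenase gene Mmp8 was at 105 ± 66.3 and 16.6 ± 14.1 CPM, and S100a8 at 2.70 ± 3.04 and 73.4 ± 103 CPM. Neither Mmp8 (adjusted p = 0.0912) nor S100a8 (adjusted p = 0.0728) passed in edgeR's quasi-likelihood test.

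Cd97 encodes a leukocyte receptor with EGF-like domains that binds CD55, a protein that protects cells from complement. It had 46.03, 60.8 and 44.3 CPM in the LSK-derived libraries, against 114, 108 and 141 CPM in the GMP-derived libraries. All 3 LSK-derived libraries were below all 3 GMP-derived ones, and the log2 fold change was -1.26 ± 0.16 (range -1.42 to -1.14 with single libraries left out). Exons of Cd97 share 895 bases with those of Ddx39, an RNA helicase gene, in the GENCODE M21 annotation, and without a stated strand setting reads there could be counted for either gene or neither. Ddx39 was at 289 ± 40.1 CPM among LSK-derived and 276 ± 25.04 CPM among GMP-derived libraries, with a log2 fold change of 0.07 (adjusted p = 0.702 in edgeR's quasi-likelihood test).

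Emr1 encodes F4/80, the classical surface marker of mouse macrophages. It had 14.2, 43.7 and 11.7 CPM in libraries LSK 44, LSK 45 and LSK 46, against 159, 30.04 and 79.1 CPM in GMP 5, GMP 11 and GMP 19. LSK 45 was above GMP 11, so the groups overlapped, and the highest library exceeded the lowest by 3.72-fold among the LSK-derived and 5.30-fold among the GMP-derived libraries. The log2 fold change was -1.93 ± 0.76, -2.78 without LSK 45 and -1.23 without GMP 5. Other macrophage markers were looked up beside it. Of 12 such genes, 5 were tested, 2 were higher and 0 lower in the LSK-derived libraries, against 11.8% and 13.9% of all tested genes. The 2 were Mrc1 (1.91 ± 0.832 against 0.693 ± 0.286 CPM) and Mertk (0.939 ± 0.693 against 0.0980 ± 0.122 CPM). The summed level of the 12 genes was 71.3, 92.4 and 79.1 CPM in the LSK-derived libraries and 17.3, 51.6 and 80.7 CPM in GMP 5, GMP 11 and GMP 19. It was lowest in GMP 5, where Emr1 was highest. Cd68 was at 63.3 ± 5.89 and 33.0 ± 18.1 CPM in the LSK-derived and GMP-derived libraries. Csf1r, which encodes the macrophage growth factor receptor, had 10.6, 21.9 and 4.96 CPM in libraries LSK 44, LSK 45 and LSK 46, against 2.70, 14.2 and 28.3 CPM in GMP 5, GMP 11 and GMP 19. Neither Cd68 (adjusted p = 0.151) nor Csf1r (adjusted p = 0.842) passed in edgeR's quasi-likelihood test. Outside GMP 5, where Csf1r was lowest and Emr1 highest, the other 5 libraries stood in the same order for both genes. The complement genes C1qa, C1qb and C1qc of resident macrophages had 4, 35 and 6 counts in the LSK-derived libraries and 1, 6 and 1 counts in the GMP-derived libraries. Emr4, a relative of Emr1 known from mouse macrophages and dendritic cells, had 1 count among LSK-derived and 1 among GMP-derived libraries. Eosinophils carry F4/80 too, and 9 eosinophil markers summed to 59.3, 10.2 and 34.1 CPM in the LSK-derived libraries and 12.7, 2.998 and 5.69 CPM in the GMP-derived libraries. Of these 9, 4 were tested, 2 were higher, 0 were lower and 2 did not pass. Those higher were Epx (11.8 ± 9.76 against 0.0273 ± 0.0473 CPM, adjusted p = 0.00566) and Prg2 (16.6 ± 12.7 against 0.653 ± 0.617 CPM, adjusted p = 0.0186), both by edgeR's quasi-likelihood test. The part of these markers in the Emr1 values was not tested.

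Per kilobase of exon, the order of the receptors differed between the groups. In the LSK-derived libraries Gpr56 came first at 65.4 ± 20.5 CPM per kb, then Gpr97 at 37.4 ± 0.676, Cd97 at 13.4 ± 2.42, Eltd1 at 8.03 ± 5.69, Emr1 at 7.17 ± 5.49, Lphn2 at 3.54 ± 0.739 and Lphn1 at 2.11 ± 0.517 CPM per kb. In the GMP-derived libraries Gpr97 came first at 44.2 ± 4.02 CPM per kb, then Cd97 at 32.2 ± 4.71, Emr1 at 27.6 ± 20.1, Gpr56 at 7.37 ± 6.27, Eltd1 at 2.23 ± 2.18, Lphn1 at 1.62 ± 0.536 and Lphn2 at 0.0275 ± 0.0262 CPM per kb. The ranges of neighbours in these orders overlapped from Cd97 through Eltd1 and Emr1 to Lphn2 in the LSK-derived libraries, and from Cd97 through Emr1, Gpr56 and Eltd1 to Lphn1 in the GMP-derived ones. The other neighbours did not overlap. The ratio of Gpr56 to Gpr97, both per kilobase, was 1.52, 1.33 and 2.41 in the LSK-derived libraries, against 0.368, 0.0653 and 0.0978 in the GMP-derived libraries.

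Summed over the 30 family genes with an exon length, the level was 129, 137 and 169 CPM per kb in the LSK-derived libraries, and 151, 105 and 129 CPM per kb in the GMP-derived libraries, so the totals overlapped. Gpr56, Gpr97, Cd97 and Emr1 together made up between 83.4% (LSK 46) and 88.8% (GMP 5) of that sum in each library. What differed was the composition. Gpr56 was 43.98%, 37.0% and 52.5% of the sum in the LSK-derived libraries, against 9.67%, 2.95% and 3.46% in the GMP-derived libraries. Cd97 was 9.53%, 11.8% and 6.96% in the LSK-derived libraries, against 20.2%, 27.4% and 29.2% in the GMP-derived libraries.

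**Figure D2:**
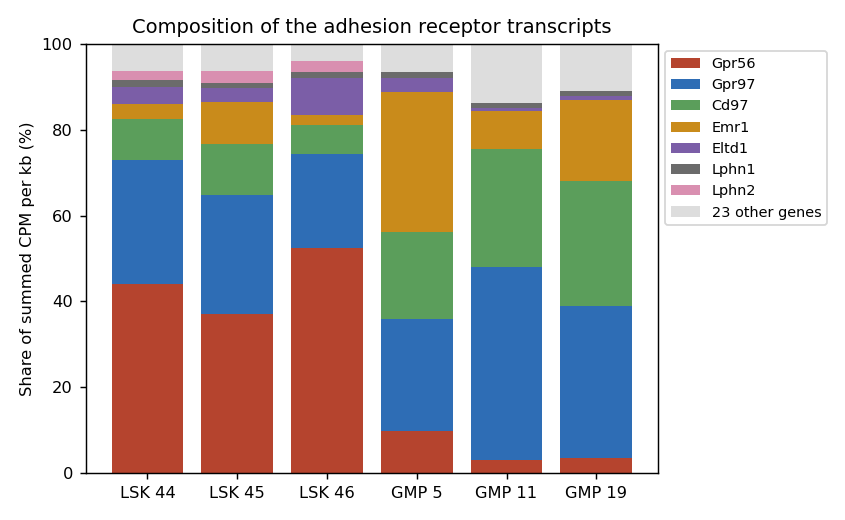
Each bar is 1 library, LSK-derived libraries on the left, and its segments are the shares (in percent) of the summed CPM per kb of 30 adhesion receptor genes. Gpr56 takes 37.0% to 52.5% in the LSK-derived and 2.95% to 9.67% in the GMP-derived libraries, while Gpr97 is a large segment in all 6.

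Gpr56 and Gpr97 are neighbours on mouse chromosome 8, in the gene order of RefSeq on GRCm38, a build other than the one the submitters name. Other genes of that stretch were Ccdc102a (log2 fold change 0.61 ± 0.29), Dok4, an adaptor protein gene called lower (-0.99 ± 0.23), and Polr2c, an RNA polymerase II subunit gene (0.02 ± 0.11). On the other side came Ccdc135 (1.31 ± 0.47, from 40 counts among LSK-derived and 23 among GMP-derived libraries) and the kinesin gene Kifc3 (-0.23 ± 0.35). None of these 5 had a log2 fold change as large as that of Gpr56 (3.16 ± 0.64), and the difference itself was not tested.

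The 7 tested genes kept the sign of their fold change in all 13 other settings, which were 7 other scalings, tests or filters and 6 fits with 1 library left out. For each of the 7, leaving out single libraries gave a wider range than the other settings. Gpr56 ranged from 2.79 to 4.11, Lphn2 from 6.71 to 8.11, Eltd1 from 1.10 to 3.02 and Emr1 from -2.78 to -1.23 with single libraries left out. Gpr97 ranged from -0.32 to -0.19. The call of Gpr56 was lost with no filter, without LSK 46 and without GMP 19.

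**Figure D3:**
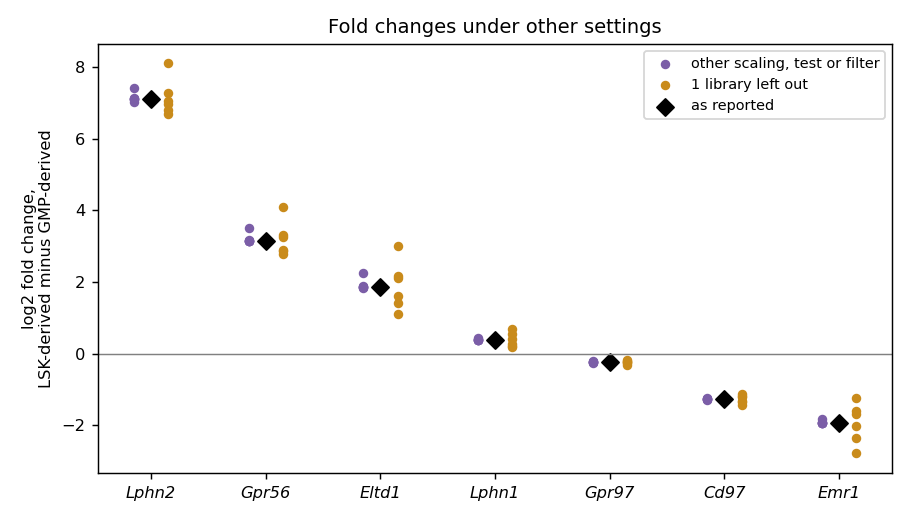
Log2 fold change (LSK-derived minus GMP-derived) of the 7 tested receptor genes as reported (diamond), under 7 other scalings, tests or filters (violet) and with each of the 6 libraries left out (ochre). No point crosses 0, and the ochre points of Gpr56, Lphn2, Eltd1 and Emr1 spread widest.

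The other 22 genes of the family were those left after the choice described above, which had results of this contrast in view. Of these, 9 were tested, 2 were higher and 3 lower in the LSK-derived libraries at an adjusted p below 0.05, and 4 did not pass. Their median log2 fold change was 0.24, against 0.01 over all tested genes, and 25.7% of all tested genes passed in either direction. Bai1, whose product is an engulfment receptor for apoptotic cells, fell to 1.33, 0.235 and 0.958 CPM in libraries LSK 44, LSK 45 and LSK 46, against 15.4, 47.3 and 43.2 CPM in GMP 5, GMP 11 and GMP 19. The groups were far apart (log2 fold change -5.46 ± 0.68, adjusted p = 0.00339 in edgeR's quasi-likelihood test), and the call held in all 13 other settings (adjusted p up to 0.0210). Celsr3, a flamingo cadherin gene with roles in planar polarity, was lower too, at 24.7 ± 2.37 against 35.3 ± 1.07 CPM (adjusted p = 0.00977, and up to 0.0448 in the other settings).

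The remaining calls were at low levels and were lost in some fits with a library left out, while the fold changes kept their direction. Gpr124, an endothelial coreceptor for WNT7 proteins, was lower at 1.10 ± 0.130 against 2.80 ± 0.890 CPM (log2 fold change -1.35 ± 0.30, adjusted p = 0.0199), a call lost in 5 of the 6 leave-out fits (0.0753 when LSK 44 was dropped). It shares 73 exon bases with Brf2, which was at 16.2 ± 0.972 and 16.3 ± 1.70 CPM. Celsr2, another flamingo cadherin gene, was higher at 2.58 ± 0.0983 against 0.722 ± 0.452 CPM (log2 fold change 1.84 ± 0.51, adjusted p = 0.0389). That call was lost without LSK 44, LSK 45, LSK 46 or GMP 5 (up to 0.108, without LSK 46, where the log2 fold change was 1.82). Gpr126, a receptor needed for myelination, was higher at 1.46 ± 1.19 against 0.231 ± 0.105 CPM (log2 fold change 2.63 ± 0.66, adjusted p = 0.0286), and lost its call without any 1 of the GMP-derived libraries (up to 0.0887, without GMP 11). Celsr1 was at 30.3 ± 5.33 and 25.6 ± 3.69 CPM, Gpr125 at 12.5 ± 8.65 and 9.92 ± 4.33 CPM and Gpr133 at 3.48 ± 1.17 and 2.20 ± 0.702 CPM, and none of these 3 passed. Gpr123, Gpr116, Gpr112 and Gpr144 had 0 counts in all 6 libraries.

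**Figure D4:**
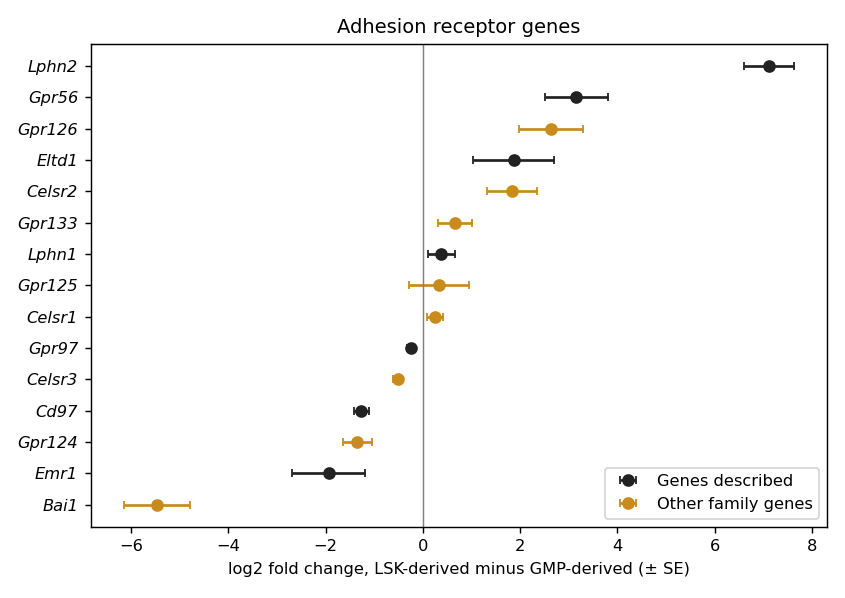
Log2 fold change (LSK-derived minus GMP-derived, with its SE) of tested adhesion receptor genes, with the 7 described above in black and others of the family in ochre. Lphn2 at 7.12 and Bai1 at -5.46 stand at the ends.

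Ligands and binding partners of these receptors were looked up as well. This list, and those of G protein genes and Gpr56 regulators below, were chosen with earlier results of these data known. Nothing is therefore read from their counts of calls. Of 27 genes, 14 were tested, 1 was higher, 5 were lower and 8 did not pass, with a median log2 fold change of 0.01. Over all tested genes, 11.8% were higher and 13.9% lower. The teneurin genes Odz1, Odz2, Odz3 and Odz4 and the FLRT genes Flrt1, Flrt2 and Flrt3, which encode latrophilin ligands, were all too low to be tested. Odz4 had the most counts among the teneurin genes, 1 among LSK-derived and 7 among GMP-derived libraries, and Flrt1 had 6 and 3. No gene of the list was called higher with no filter or without LSK 44, LSK 45, LSK 46 or GMP 5. Tgm2, which encodes a transglutaminase that binds GPR56, was lower at 8.26 ± 0.826 against 33.2 ± 20.6 CPM (adjusted p = 0.0229), a call lost with limma voom, with no filter and without any 1 LSK-derived library (up to 0.0854, without LSK 44). The integrin genes Itgav (37.8 ± 6.03 against 56.4 ± 0.897 CPM, adjusted p = 0.0136) and Itgb3 (7.76 ± 1.93 against 13.9 ± 1.71 CPM, adjusted p = 0.0253) and the netrin receptor gene Unc5a (1.58 ± 0.580 against 5.22 ± 2.13 CPM, adjusted p = 0.0228) were lower. Each of these 3 lost its call in at least 2 fits without a library (up to 0.0591 for Itgav, 0.0914 for Itgb3 and 0.0667 for Unc5a). Cd55, the CD97 ligand gene, had 10.6, 10.9 and 38.2 CPM in the LSK-derived libraries, against 0, 3.98 and 0.0880 CPM in GMP 5, GMP 11 and GMP 19. The ranges of Cd55 did not overlap, and it did not pass (adjusted p = 0.102). Cd81 and Cd9, tetraspanin genes whose products bind GPR56, were at 104 ± 2.33 and 97.8 ± 19.7 CPM and at 19.6 ± 12.0 and 9.89 ± 3.99 CPM, and neither passed.

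Of 38 G protein and effector genes, 34 were tested, 3 were higher, 7 were lower and 24 did not pass, with a median log2 fold change of -0.11. Over all tested genes, 11.8% were higher and 13.9% lower. Gna12 and Gna13 encode the G proteins through which GPR56 activates RhoA. Gna12 was lower, at 61.2, 66.9 and 63.0 CPM in the LSK-derived libraries, against 139, 114 and 119 CPM in the GMP-derived ones (log2 fold change -0.96 ± 0.09, adjusted p = 0.00115). Gna13 was at 152 ± 2.48 and 172 ± 7.72 CPM, with an adjusted p of 0.0796. Arrb1, a beta-arrestin gene, was lower at 35.4 ± 5.05 against 110.0 ± 22.8 CPM (log2 fold change -1.64 ± 0.17, adjusted p = 0.00178). The phospholipase gene Plcb1 was lower at 0.296 ± 0.0481 against 3.75 ± 1.31 CPM (log2 fold change -3.61 ± 0.35, adjusted p = 0.00120). Grk6, which encodes a kinase that switches off activated receptors, was higher at 195 ± 5.96 against 150.1 ± 10.6 CPM (adjusted p = 0.0119, or 0.0526 without LSK 46).

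Genes of transcription factors reported to bind or regulate Gpr56 in blood stem cells or in human leukaemia were looked up as a list of 8, all tested. Of these, 3 were higher, 0 were lower and 5 did not pass, with a median log2 fold change of 0.53. Because the list was chosen with earlier results of these data known, nothing is read from these counts. Over all tested genes, 11.8% were higher and 13.9% lower. Mecom, which encodes EVI1, had 144, 187 and 180 CPM in the LSK-derived libraries, against 0, 0.119 and 0.117 CPM in the GMP-derived libraries (adjusted p = 4.72e-05). Tal1 was higher at 3.69, 2.32 and 10.5 CPM against 0, 0.148 and 0.0586 CPM (adjusted p = 0.00599), and Erg at 100.1 ± 10.0 against 67.7 ± 4.25 CPM (adjusted p = 0.00668). Gata2 did not pass (adjusted p = 0.0699), and had 64.5, 60.1 and 108 CPM in libraries LSK 44, LSK 45 and LSK 46, against 45.6, 13.8 and 12.0 CPM in GMP 5, GMP 11 and GMP 19. For Gata2 and Erg as for Gpr56, LSK 46 was the highest library and GMP 5 the highest of the GMP-derived ones. Lphn1, Lphn2 and Eltd1 had this order too. The other genes of the list did not share it. Mecom and Tal1 were at 0 in GMP 5, and Runx1 was at its lowest there, at 23.1 CPM. The part of these genes in the Gpr56 values was not tested.

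The genes whose log2 CPM was most like that of the 4 receptors with the highest level per kilobase were taken from 9152 tested genes with a mean of at least 5 CPM, over the 6 libraries. With so few libraries in 2 groups, many genes reach a high correlation, so r is given as a description. For Gpr56 they were the autophagy gene Wipi2 (r = 0.9990), the globin gene Hbb-b2 (0.9968) and the ubiquitin protease family gene Usp54 (0.9963). Wipi2 had 88.1, 88.1 and 94.1 CPM in the LSK-derived libraries and 77.3, 64.4 and 67.1 CPM in the GMP-derived libraries, a far smaller range than that of Gpr56. For Cd97 they were the corepressor gene Irf2bp2 (0.9988), the caspase gene Casp6 (0.9980) and the sugar kinase gene Nagk (0.9980). For Gpr97 they were Galt (0.9925), an enzyme gene of galactose breakdown, Mid1ip1 (0.9923) and Yif1a (0.9922). For Emr1 they were Rnf11 (0.9977), Wdr44 (0.9966) and Sdf4 (0.9910). Each of these spanned a far smaller range than Emr1. Wdr44 hardly varied, at 16.0, 16.4 and 16.0 CPM in the LSK-derived libraries and 16.9, 16.3 and 16.6 CPM in the GMP-derived libraries.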

How the data were processed

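Per the labels' protocols, TRIzol extraction was followed by TruSeq RNA library preparation. The authors deposited raw read counts per gene symbol for 6 libraries. STAR 2.4, HTSeq 0.6.1, DESeq2 and mm9 are named in the submitters' processing notes, with no role given; annotation and strandedness: not given in the sources used here. Reads of genes that overlap may therefore have been assigned to either.

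The receptors and the gene lists were chosen with earlier results of these data known. Genes were filtered with filterByExpr, scaled by TMM and tested with edgeR 4.0.16 in R 4.3.3 (glmQLFit with robust estimation, glmQLFTest, no covariate), with Benjamini-Hochberg adjustment over 13406 genes and calls below 0.05. CPM are counts over the scaled library totals, as mean ± SD of 3 libraries. SE is the log2 fold change over the square root of the F statistic. Exon lengths, found for 97.5% of tested genes, came from GENCODE M21 (GRCm38) and served only to scale levels. Intervals of chance in counting are not shown; 3 counts are taken as the limit that 0 counts allow, which covers counting error only. The fit was checked on simulated counts. Likeness used log2(CPM + 0.01). Named genes were all tested family genes, up to 4 called genes by p per partner list and the 2 most abundant per marker list; some of these are not reported here, and others, named as a receptor's known partners or markers, were picked with their values in view. Alternatives used DESeq2 1.42.0, limma 3.58.1 voom, other scalings and filters, and each library left out.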

Additional observations from a re-analysis of the deposited data

How the results depend on the processing

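The 7 tested receptor genes kept the direction of their fold change under all 13 alternatives, and the median log2 fold change of all tested genes was at most 0.0383 under any of them. Counts of called genes depended on single libraries. With 1 library left out, the genes called higher in the LSK-derived libraries ranged from 770 (without LSK 46) to 1523 and those called lower from 973 (without LSK 44) to 1944. Of the receptors described, between 1 and 3 were then called higher and between 1 and 2 lower. With no filter 1 was called higher, and with DESeq2, which added Gpr97, 2 were called lower. Gpr56 lost its call with no filter, without LSK 46 and without GMP 19, while Lphn2 and Cd97 kept theirs in all 13 alternatives. Of the other adhesion receptor genes, between 0 and 1 were called higher and between 2 and 3 lower with 1 library left out, and 1 was called higher among genes with a mean of at least 1 CPM, where Gpr126 is not tested. Ligands and partners called higher numbered 2 with DESeq2, 2 with limma voom, 0 with no filter and 0 to 2 with 1 library left out; those called lower numbered 3 with limma voom, 3 with no filter and 0 to 4 with 1 library left out. G protein and effector genes called higher numbered 5 with upper-quartile scaling, 7 with DESeq2 and 0 to 4 with 1 library left out, and those called lower 10 with DESeq2 and 3 to 8 with 1 library left out. Regulators of Gpr56 called higher numbered 3 to 4, and those called lower 0 to 2, the 2 being without GMP 5. Gpr125 reversed to -0.25 without LSK 45, and reached 0.79 without LSK 46. The fits without a library have fewer samples; the cause of the other changes was not tested. No paired analysis was possible because the groups share no replicate numbers in the labels.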
